A study of Mus musculus with 101 samples.

Results

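Epididymal white fat of chow-fed mice lacking Inhbe (KO, 7 libraries) was compared with that of chow-fed wild-type mice (WT, 8 libraries) across all genes, and these 15 libraries were taken by their labels from the 101 of the series. All animals were male C57BL/6NTac mice, and each library is labelled as a biological replicate. The series also holds KO and WT mice on a high-fat diet (HFD), subcutaneous fat of the same groups, and chow-fed mice given a liver-directed AAV8 vector with mouse Inhbe (mInhbe) or with GFP. Those libraries are used here where they show what the chow-fed epididymal pad shares with them: 8 KO and 8 WT HFD epididymal libraries, 7 KO and 8 WT chow subcutaneous libraries, and 10 mInhbe and 10 GFP epididymal libraries. The labels give neither the age of the mice nor the way the allele was made. They name no tissue to which the KO would be restricted.

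Inhbe encodes the inhibin beta E chain, which dimerises to activin E, a hepatokine of the TGF-beta family. Ligands of this kind bind pairs of type I and type II receptor kinases, and fat cells carry a type I receptor, ALK7, encoded by Acvr1c. The activated receptors phosphorylate SMAD2 and SMAD3, which enter the nucleus and drive target genes that include feedback inhibitors of the same pathway. In white fat, ALK7 signalling is known for restraining the breakdown of stored triglyceride. Epididymal fat of male rodents lies against the epididymis, the duct in which sperm mature, and dissected pads can carry pieces of it.

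Depth ran from 14.1 to 17.0 in units of 1e+06 estimated counts, so that 3 counts stood for 0.176 to 0.212 CPM (counts per 1e+06 counts of a library). The fat-cell gene Adipoq had 1902 to 2681 CPM in KO and 1646 to 3097 CPM in WT libraries, and no gene of a list of 8 fat-cell genes was called. Inhbe itself had 0 counts in all 15 libraries, KO and WT, which allows up to 0.0280 CPM over the KO group and 0.0246 CPM over the WT group at 3 counts. The gene is known for its expression in liver, so fat libraries cannot check the genotype labels. Crisp1, an epididymis gene, stood above 1000 CPM in KO replicates 1, 3, 6 and 7 and in WT replicates 3, 5 and 8. In the other 8 libraries it had 158 CPM or less, and the comparison was also fitted within each kind of library. A change in the RNA of a whole pad cannot tell fewer cells of a type from less RNA per cell.

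Few genes passed the test between KO and WT in chow-fed epididymal fat, and falls outnumbered rises. Of 15042 genes tested, 99 (0.658%) had an adjusted p under 0.05, of which 26 were higher and 73 lower in KO (0.173% and 0.485%). At least 2-fold changes were seen in 48 of the 99, 15 rises and 33 falls. The median log2 fold change of all genes tested was -0.02. For 51 of the 99 genes no KO library overlapped a WT library, 9 of the 26 rises and 42 of the 73 falls, whereas 0.804% of all genes tested had such a gap. A total of 921 genes had an unadjusted p under 0.05. When each of the 15 libraries was left out in turn, 55 of the 99 genes were called every time, and 44 lost their call at least once.

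**Figure D1:**
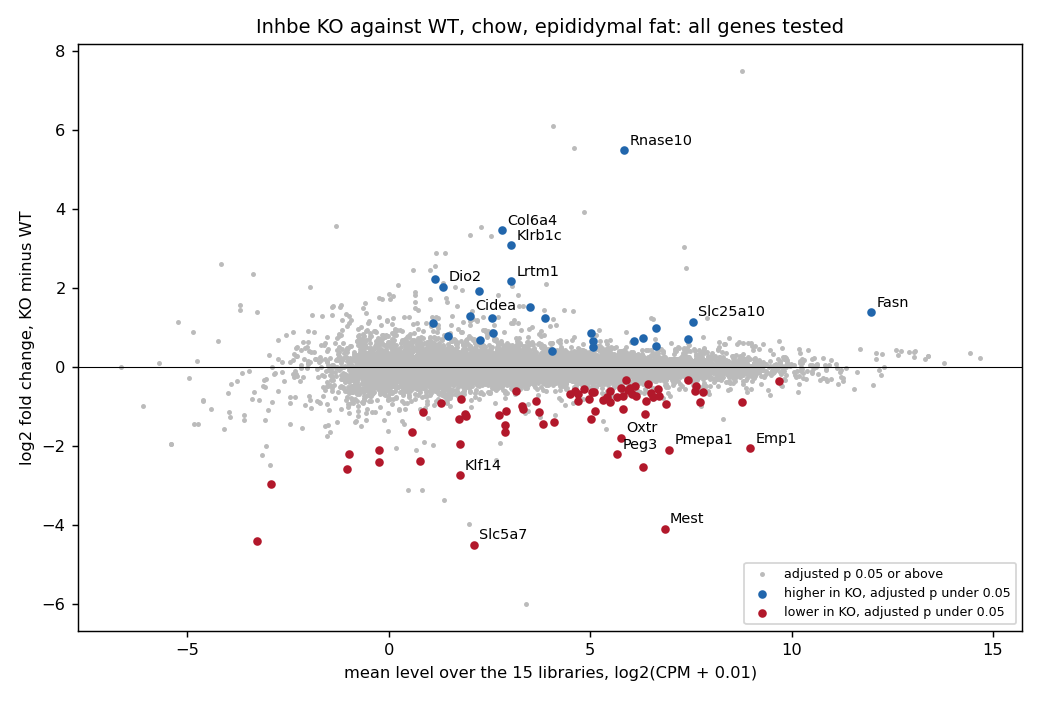
Log2 fold change of each gene tested (KO minus WT, vertical axis) against its mean level over the 15 chow epididymal libraries (log2 of CPM + 0.01, horizontal axis), with each point a gene and called genes coloured by direction. Mest, Pmepa1 and Emp1 stand below the other well-expressed genes, and Rnase10, Col6a4 and Klrb1c stand above them.

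The largest fall among well-expressed genes was in Mest, a paternally expressed imprinted gene whose product has an alpha/beta-hydrolase fold and which is known for rising in fat as depots expand. Mest (Entrez 17294, chromosome 6, 30733506 to 30748466, GRCm38.p6) had 8.14 CPM in the lowest KO library, a median of 11.5 and 16.4 CPM in the highest, against 138, 209 and 268 CPM in WT libraries. The 2 groups lay far apart, with a log2 fold change of -4.09 ± 0.22 (SE, adjusted p = 6.62e-14). Klf14, a maternally expressed Krüppel-like factor gene, had 0.0702, 0.563 and 1.53 CPM (lowest, median, highest) in KO and 3.65, 5.4 and 8.34 CPM in WT libraries (-2.74 ± 0.41, adjusted p = 0.000202). Its groups did not overlap either. Peg3, a paternally expressed zinc finger gene on chromosome 7, had 12.7, 18.6 and 22.9 CPM in KO and 43.8, 77.0 and 118 CPM in WT libraries (-2.20 ± 0.33, adjusted p = 0.000202), also without overlap. These 3 were the called members of a list of imprinted genes, of which 19 of 22 were tested: 0 rose, 3 fell, and the median log2 fold change was -0.11. Zim1, which neighbours Peg3, had 0.417 ± 0.336 CPM in KO and 1.74 ± 0.687 CPM in WT libraries (SD), and at -2.04 ± 0.56 it missed the threshold (adjusted p = 0.105). Peg10 likewise stayed outside it (-0.71 ± 0.23, adjusted p = 0.263), and Igf2 stood at -0.09 ± 0.16.

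Beside Mest, Klf14 and Cep41 were called and Copg2 was not. Klf14 starts 222.5 kb from the start of Mest. Copg2, which overlaps the 3′ end of Mest on the map and lies between the pair, had 76.4 ± 4.73 CPM in KO and 78.7 ± 6.21 CPM in WT libraries (SD), with a log2 fold change of -0.01 ± 0.06. On the other side Cep41, a gene for a centrosomal protein 22988 bases from Mest, had 4.72, 7.37 and 9.54 CPM in KO and 7.61, 10.5 and 13.0 CPM in WT libraries (-0.60 ± 0.11, adjusted p = 0.00334), with overlapping groups. Whether the counting used strand is not given in the sources used here, so reads of overlapping genes cannot be told apart. Among the 99 called genes, 7 pairs lay within 200 kb of each other. On chromosome 2, Pmepa1, Ctcfl and its antisense neighbour Ctcflos fell within 1 such stretch, and Disp2 fell with its neighbour Ccdc9b, 16754 bases away.

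In the list of 16 SMAD2/3 target and feedback genes 2 members fell, among them Pmepa1. Pmepa1, a membrane protein that TGF-beta signals induce and that binds SMAD2 and SMAD3 as a feedback inhibitor, had 40.7, 42.9 and 60.0 CPM in KO and 135, 180 and 280 CPM in WT libraries. The groups were clear of each other, at -2.08 ± 0.14 (adjusted p = 5.38e-12). The list's median was -0.17, and 14 members did not pass the test. Nedd9 (-0.59 ± 0.19, adjusted p = 0.226) and Ldlrad4 (-0.47 ± 0.15, adjusted p = 0.213), a scaffold gene and another feedback inhibitor, came nearest.

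Among 17 receptor and SMAD genes the type I activin receptor gene Acvr1b, which encodes ALK4, was the called member. It had 21.3, 23.1 and 24.1 CPM in KO and 30.7, 33.9 and 37.9 CPM in WT libraries (-0.55 ± 0.09, adjusted p = 0.0011). The shift was small, yet every KO library lay below every WT library. Acvr1c, the ALK7 gene, had 288 to 511 CPM in KO and 255 to 552 CPM in WT libraries (0.07 ± 0.26, adjusted p = 1). No member of the lists of activin-like ligands and antagonists (14 tested) and of BMP targets (11 tested) was called, against 0.658% of all genes tested. With the 8 libraries of low Crisp1 level alone, Acvr1b had the same difference (-0.57) at an adjusted p of 0.0862.

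Other large falls were in single genes of various functions. Slc5a7, the choline transporter of cholinergic nerve endings, had 0, 0.202 and 0.813 CPM in KO and 1.82, 7.61 and 14.6 CPM in WT libraries (-4.49 ± 0.49, adjusted p = 9.59e-07). Most KO libraries were thus near the level that 3 counts stand for. Oxtr, the oxytocin receptor, had 12.4, 24.7 and 31.5 CPM in KO and 41.6, 86.6 and 105 CPM in WT libraries (-1.78 ± 0.21, adjusted p = 2.48e-06). No KO library overlapped a WT library. Kcne1l, an accessory subunit of potassium channels, fell by 1.64 ± 0.31 on the log2 scale, with 0.127 to 1.02 CPM in KO and 1.28 to 3.65 CPM in WT libraries. Cacna1e, the pore subunit of a voltage-gated calcium channel, fell by 1.65 ± 0.34 with overlapping groups, 1.26 to 6.69 CPM in KO and 3.68 to 17.6 CPM in WT libraries. The predicted gene Gm7609 fell by 2.36 ± 0.49 and also overlapped, 0.125 to 1.17 CPM in KO and 0.990 to 5.66 CPM in WT libraries. With an epididymis score, the mean log2(CPM + 1) of 14 epididymis genes, as a covariate the calls of Cacna1e (adjusted p = 0.0973) and Gm7609 (adjusted p = 0.106) ended.

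Emp1, which encodes a tetraspan epithelial membrane protein, was the best expressed of the large falls. It had 104, 180 and 262 CPM in KO and 542, 820 and 927 CPM in WT libraries (-2.05 ± 0.18, adjusted p = 4.97e-09), with a wide gap between the groups. Disp2, a gene of the Dispatched family of membrane proteins, had 4.88, 6.87 and 11.4 CPM in KO and 13.7, 19.8 and 29.9 CPM in WT libraries (-1.44 ± 0.17, adjusted p = 3.94e-06). Sox7, a transcription factor gene of endothelial cells, had 18.4, 21.6 and 22.5 CPM in KO and 36.4, 46.8 and 60.6 CPM in WT libraries (-1.11 ± 0.14, adjusted p = 1.23e-05). The KO values of Sox7 were tightly grouped, while none of the 10 endothelial marker genes was called. Fam20c, a Golgi kinase of secreted proteins, fell by 1.31 ± 0.15, and the pantetheinase gene Vnn1 fell by 1.45 ± 0.23, both without overlap of the groups. Nrg4, a neuregulin secreted by fat cells, was the called member of 11 adipokine genes, with 23.5, 31.2 and 39.5 CPM in KO and 46.6, 55.8 and 71.2 CPM in WT libraries (-0.87 ± 0.15, adjusted p = 0.00131). Lep, which encodes leptin, was not called (-0.29 ± 0.23).

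**Figure D2:**
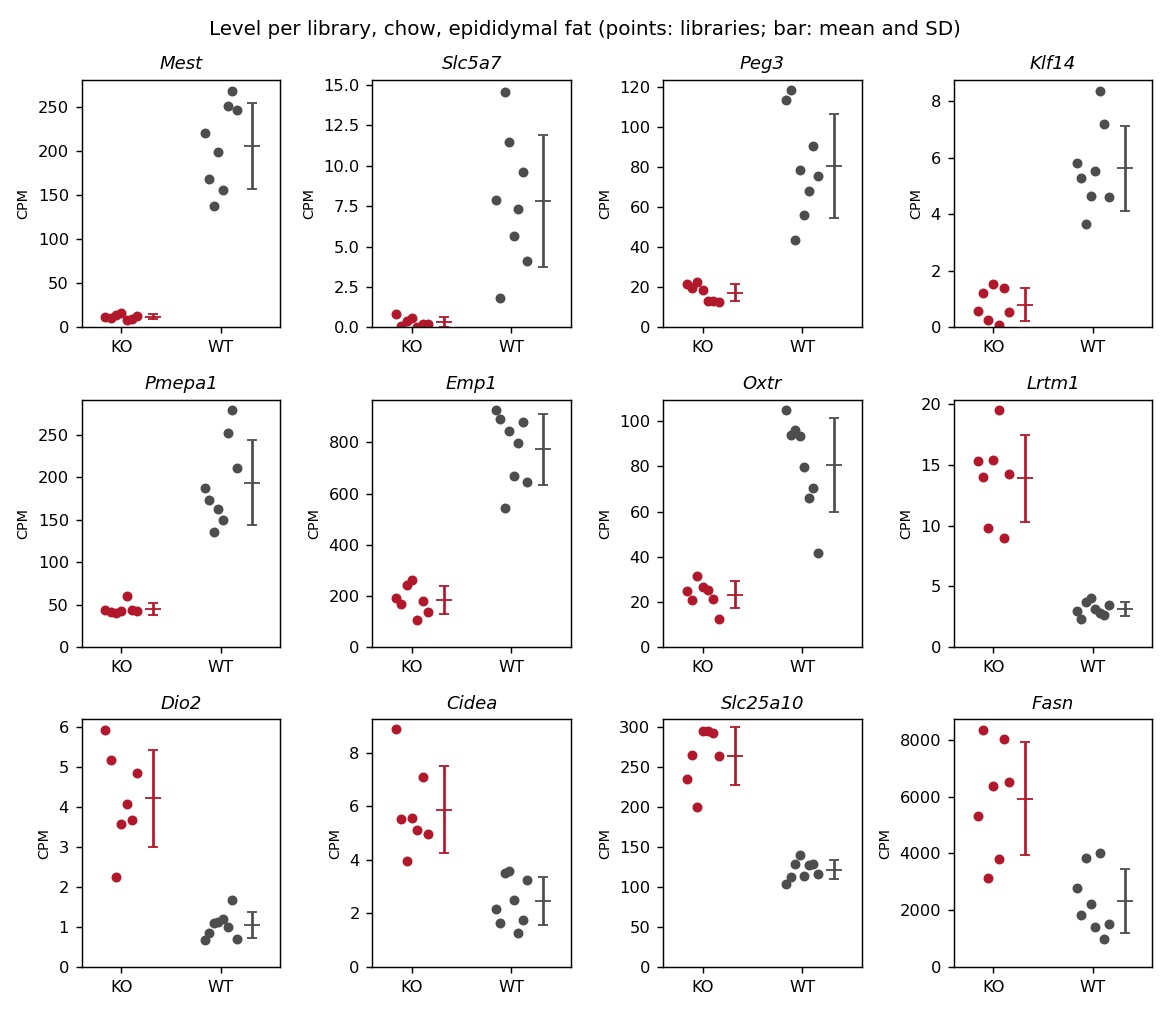
CPM of 12 called genes in each chow epididymal library, with KO libraries left of WT libraries, a point per library and a bar for the mean and SD. Every KO library of Mest, Slc5a7, Peg3, Klf14, Pmepa1, Emp1 and Oxtr lies below every WT library, every KO library of Lrtm1, Dio2, Cidea and Slc25a10 lies above every WT library, and the groups of Fasn overlap.

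The promoters of 4 of the called genes with the smallest adjusted p that have an entry in the reference are shown next, because these genes carry the clearest differences in both directions. They run from 250 bases before to 50 bases after the annotated start, 5′ to 3′ on the gene's own strand, and come from RefSeq on GRCm38.p6. They are chr6:30733256-30733555 for Mest (plus strand, 1 of 3 annotated starts), chr14:29017958-29018257 for Lrtm1 (plus strand), chr6:135362681-135362980 for Emp1 (plus strand, 1 of 2 annotated starts) and chr17:54298985-54299284 for Slc5a7 (minus strand). Capitals mark CAGAC or its reverse complement GTCTG, the short element that SMAD3 and SMAD4 are known to bind.
Mest: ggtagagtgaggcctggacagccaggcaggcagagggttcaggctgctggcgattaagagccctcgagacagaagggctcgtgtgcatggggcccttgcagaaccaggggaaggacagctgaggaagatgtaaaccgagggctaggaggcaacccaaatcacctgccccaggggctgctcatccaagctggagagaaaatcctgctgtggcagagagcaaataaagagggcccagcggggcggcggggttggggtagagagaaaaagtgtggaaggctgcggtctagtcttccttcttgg
Emp1: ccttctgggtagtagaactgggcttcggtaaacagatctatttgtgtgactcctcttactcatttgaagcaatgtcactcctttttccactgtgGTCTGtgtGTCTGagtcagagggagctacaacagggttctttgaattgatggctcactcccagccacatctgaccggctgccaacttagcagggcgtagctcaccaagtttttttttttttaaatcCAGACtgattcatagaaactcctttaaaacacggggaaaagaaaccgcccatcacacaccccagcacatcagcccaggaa
Slc5a7: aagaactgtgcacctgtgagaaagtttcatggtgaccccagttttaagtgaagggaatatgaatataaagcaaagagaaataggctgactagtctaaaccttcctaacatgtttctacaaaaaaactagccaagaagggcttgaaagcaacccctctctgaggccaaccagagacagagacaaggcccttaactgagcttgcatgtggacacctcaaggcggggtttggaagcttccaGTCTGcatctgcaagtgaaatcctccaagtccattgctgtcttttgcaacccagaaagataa
Lrtm1: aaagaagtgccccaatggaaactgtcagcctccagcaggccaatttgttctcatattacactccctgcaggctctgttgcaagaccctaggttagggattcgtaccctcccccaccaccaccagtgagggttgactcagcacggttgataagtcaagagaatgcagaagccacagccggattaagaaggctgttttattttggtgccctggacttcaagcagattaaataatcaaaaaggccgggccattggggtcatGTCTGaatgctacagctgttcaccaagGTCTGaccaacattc
The Mest window held none of these elements, Emp1 held 3, Slc5a7 held 1 and Lrtm1, which rose, held 2. The window at the other annotated start of Emp1, not printed, held 0. Over all entries, the element stood in 35 of 70 promoters of the genes that fell (50.0%, 54 genes) and in 11 of 22 of the genes that rose (50.0%, 16 genes), against 47.9% of the 15113 promoters of genes tested. The palindrome GTCTAGAC, searched on both strands, was in 1 of the 70 promoters of genes that fell, in 0 of the 22 of genes that rose and in 0.271% of those of genes tested. A match is a run of letters and not a measured site, and these shares were near that of all genes tested for the short element.

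Rises were fewer and included Fasn and 3 genes of a thermogenic list. Lrtm1, which encodes a leucine-rich repeat membrane protein, had the smallest adjusted p among them, with 8.98, 14.3 and 19.5 CPM in KO and 2.31, 3.06 and 4.02 CPM in WT libraries (2.18 ± 0.14, adjusted p = 5.38e-12). The groups did not overlap. Dio2, the deiodinase that makes active thyroid hormone in brown fat, had 2.25, 4.07 and 5.94 CPM in KO and 0.674, 1.06 and 1.67 CPM in WT libraries (2.04 ± 0.29, adjusted p = 6.95e-05). Cidea, a lipid droplet protein abundant in brown fat, had 3.96, 5.54 and 8.88 CPM in KO and 1.28, 2.32 and 3.59 CPM in WT libraries (1.30 ± 0.26, adjusted p = 0.00746). Both were low genes whose KO libraries all lay above the WT libraries. Cox8b, a cytochrome c oxidase subunit of muscle and brown fat, was at 1.91 to 4.43 CPM in KO and 0.673 to 2.23 CPM in WT libraries (1.12 ± 0.26, adjusted p = 0.0282). Its call ended without any one of 7 libraries (KO replicates 4 and 6, WT replicates 1, 2, 3, 5 and 7), with an adjusted p up to 0.0902. These 3 were the called members among 17 tested genes of a thermogenic list, whose median was 0.11. Ucp1, the brown-fat uncoupling protein gene, had 5.06 CPM in KO replicate 1 and at most 0.283 CPM in each other library, KO or WT, and was not called (adjusted p = 0.156). Without KO replicate 1, Dio2 and Cidea were still called.

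Fasn, fatty acid synthase, was the most abundant called gene and had 3123, 6382 and 8359 CPM in KO and 983, 2033 and 4000 CPM in WT libraries (1.39 ± 0.27, adjusted p = 0.00593). The upper WT libraries overlapped the lower KO libraries. Fasn was the called member of 17 lipogenesis genes. Of these 14 had a positive log2 fold change, 10 had an unadjusted p under 0.05, and the median was 0.54, against -0.02 for all genes tested. An unadjusted p under 0.05 was found for 921 of the 15042 genes tested. Elovl6 (0.90 ± 0.26, adjusted p = 0.162), a fatty acid elongase gene, and Pnpla3 (0.73 ± 0.19, adjusted p = 0.066), a gene of the patatin-like lipase family, did not pass. Slc25a10, the mitochondrial dicarboxylate carrier, had 199, 265 and 295 CPM in KO and 103, 122 and 140 CPM in WT libraries (1.15 ± 0.13, adjusted p = 2.48e-06), without overlap. Gys2, glycogen synthase of the liver type, had 8.49, 16.7 and 27.4 CPM in KO and 2.79, 5.83 and 12.7 CPM in WT libraries (1.53 ± 0.27, adjusted p = 0.00215), with overlap. Clstn3, a calsyntenin gene with an isoform of fat cells, rose by 1.24 ± 0.19 on the log2 scale, Lypd1, a gene of the Ly6 family, by 1.24 ± 0.24 and the predicted gene Gm9696 by 1.93 ± 0.31. In a fit of the 2 groups alone, Gys2 (adjusted p = 0.05) and Lypd1 (adjusted p = 0.0543) no longer passed.

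Rises in genes of fuel handling outside lipogenesis were single genes. Grb14, an adaptor that inhibits the insulin receptor, was the called member of 13 insulin and glucose uptake genes, with 20.0, 50.5 and 54.3 CPM in KO and 17.4, 23.0 and 32.8 CPM in WT libraries (0.88 ± 0.17, adjusted p = 0.0044). The 2 lowest KO libraries, at 20.0 and 26.9 CPM, lay inside the WT range, and the other 5 lay above it. In a fit of the 2 groups alone Grb14 had an adjusted p of 0.0614. Slc2a4, the insulin-responsive glucose transporter GLUT4, was at 0.49 ± 0.16 (adjusted p = 0.248). Fabp5, a fatty acid binding protein, was the called member of 12 fatty acid uptake genes, with 87.2, 92.5 and 125 CPM in KO and 43.8, 59.9 and 78.0 CPM in WT libraries (0.74 ± 0.16, adjusted p = 0.0197). Its groups did not overlap, though without KO replicate 4 the adjusted p was 0.05 and without KO replicate 6 it was 0.0634. Orm1, an acute-phase plasma protein gene, and Cdkn2c, a cell cycle inhibitor gene, rose by 1.01 ± 0.21 and 0.71 ± 0.14.

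Several lists of fat-cell function held no called gene, where 0.658% of all genes tested were called. At that share, lists this short can hold 0 called genes without differing from the rest. None of 14 lipolysis genes passed, with a median of 0.04: the adipose triglyceride lipase gene Pnpla2 was at 0.24 ± 0.19, the hormone-sensitive lipase gene Lipe at 0.06 ± 0.16 and G0s2, whose product inhibits the Pnpla2 lipase, at -0.43 ± 0.17 (adjusted p = 0.578). At an unadjusted p under 0.05 there were 2 of the 14, against 921 of the 15042 genes tested. No gene was called either among 8 antilipolytic receptor genes, 10 triglyceride synthesis genes (Gpd1 at 0.59 ± 0.18, adjusted p = 0.195) and 18 fatty acid oxidation genes. In oxidative phosphorylation 0 of 24 genes were called, yet 24 of 24 had a positive log2 fold change, from 0.08 to 0.31, with a median of 0.18. Hmgcs1, which makes the substrate of the rate-limiting step of cholesterol synthesis, fell (105 to 161 CPM in KO and 176 to 373 CPM in WT libraries, -0.88 ± 0.20, adjusted p = 0.031), whereas 15 of the 17 cholesterol synthesis genes had a positive log2 fold change. The Hmgcs1 call ended without any one of 9 libraries (KO replicates 1, 3, 5, 6 and 7, WT replicates 1, 2, 6 and 7), with an adjusted p up to 0.0793, and when the epididymis score was added to the fit (adjusted p = 0.147).

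Lists of matrix and immune genes held 1 called gene, Thbs2, which fell. This matrix glycoprotein gene, 1 of 25 in its list, had 17.8, 34.9 and 48.4 CPM in KO and 41.5, 73.8 and 116 CPM in WT libraries (-1.06 ± 0.24, adjusted p = 0.024). The lower WT libraries overlapped the upper KO libraries. Of the 25 genes 24 had a negative log2 fold change, with a median of -0.20. The Thbs2 call ended without KO replicate 5 (adjusted p = 0.0724), KO replicate 7 (0.0625), WT replicate 2 (0.0699) or WT replicate 4 (0.0591), and when the epididymis score was added to the fit (0.217). None of 14 macrophage genes was called, but 13 had a negative log2 fold change and the median was -0.31. Their mean log2(CPM + 1) was 5.26 ± 0.164 in KO and 5.56 ± 0.205 in WT libraries (SD), a difference of -0.30 (exact permutation test, 2-sided p = 0.00653, adjusted p = 0.0555 over 17 marker lists). Of these 17 lists the set of 6 brown-fat genes passed, as given with the tissue markers, and the other 15 had an adjusted p of 0.137 or more. None of 11 inflammatory cytokine genes was called either, with a median of -0.64, and 0.658% of all genes tested were called. Saa3, a serum amyloid gene of inflamed fat, had 0.820 to 2.75 CPM in KO and 1.24 to 49.0 CPM in WT libraries (-2.35 ± 0.60, adjusted p = 0.0614).

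**Figure D3:**
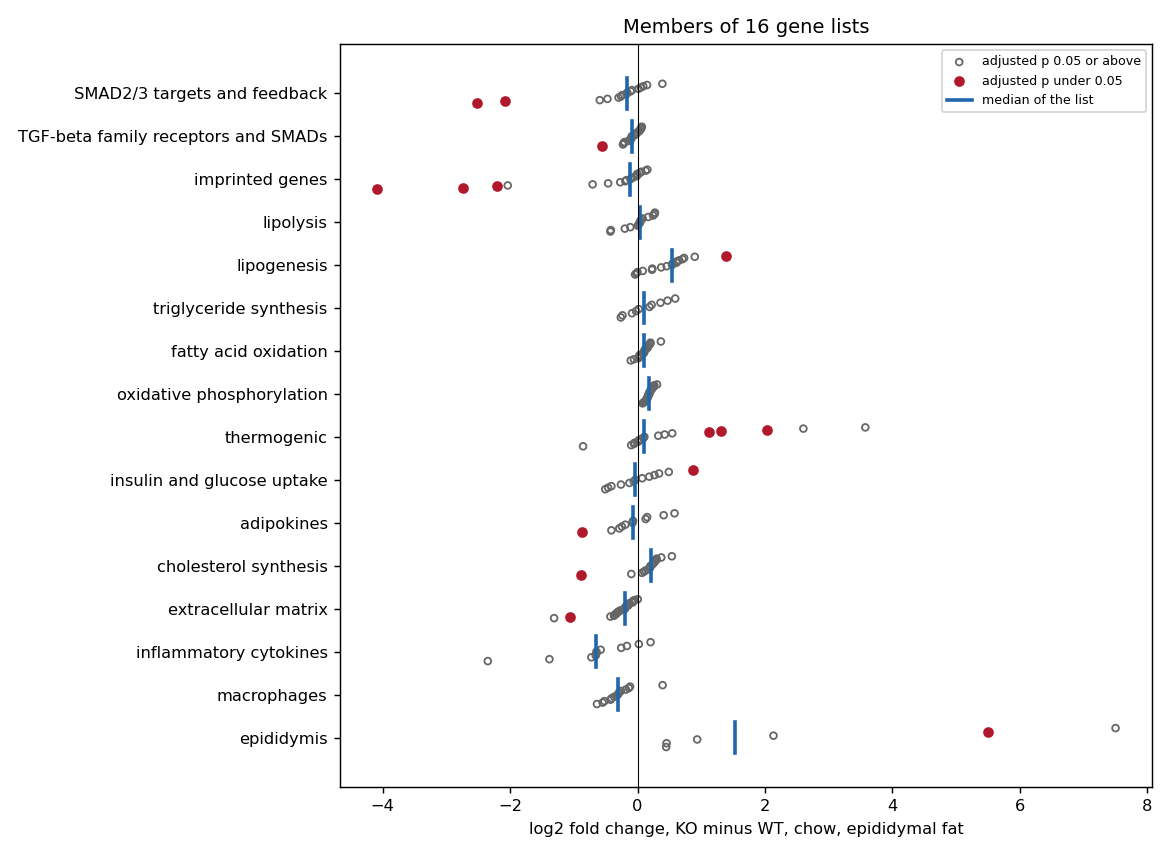
Log2 fold change (KO minus WT) of the tested members of 16 gene lists in chow epididymal fat, with a point per gene, filled where the adjusted p was under 0.05, and a bar at each list's median. The lipogenesis genes lie mostly right of 0 and the matrix and macrophage genes mostly left of it, while filled points are few in each list.

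Of the largest fitted rises, 4 followed single libraries. Rnase10, a ribonuclease gene of the epididymis, had 786 CPM in KO replicate 5, 50.1 CPM in KO replicate 4 and at most 0.751 CPM in the other 5 KO libraries, against 19.2 CPM in WT replicate 8 and at most 1.41 CPM in the other 7 WT libraries. The same 3 libraries were highest for Col6a4, a collagen VI chain gene, with 82.7, 5.81 and 3.75 CPM in KO 5, KO 4 and WT 8 and at most 1.39 CPM elsewhere. They were also highest for Klrb1c, known as a natural killer cell receptor gene, with 93.9, 7.22 and 3.75 CPM. Shc4, an adaptor protein gene, had 19.4 CPM in KO replicate 5 and at most 1.70 CPM in each other library. Without KO replicate 5 the log2 fold changes were 1.88 for Rnase10, 0.73 for Col6a4, 0.51 for Klrb1c and 0.62 for Shc4, with adjusted p of 0.984 to 0.998, against 5.50 ± 1.33, 3.46 ± 0.81, 3.08 ± 0.72 and 2.24 ± 0.54 with it. Gpx5, an epididymal glutathione peroxidase, had 6274 CPM in KO replicate 5, 272 CPM in KO replicate 4 and 39.5 CPM in WT replicate 8. The 14 epididymis genes summed to 4.99 to 10164 CPM in KO and 1.92 to 4930 CPM in WT libraries.

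The summed level of a small set of brown-fat genes stood higher in KO libraries, as did Alb among the liver genes. A set of 6 brown-fat genes, which holds Dio2, Cidea and Cox8b, summed to 8.46 to 24.5 CPM in KO and 4.26 to 7.99 CPM in WT libraries, with the highest value in KO replicate 1, the library with Ucp1. The medians were 13.0 CPM in KO and 4.83 CPM in WT libraries, and the groups did not overlap. Of the 6 genes 5 were tested, with log2 fold changes from 0.01 to 3.58, and 2 of these 5 were not called. For 1 of the 6 all 15 libraries had 0 counts. The wider thermogenic list of 17 tested genes had 13 positive and 4 negative log2 fold changes, with a median of 0.11. The mean log2(CPM + 1) of the set was 1.34 ± 0.320 in KO and 0.771 ± 0.125 in WT libraries (SD), a difference of 0.56 (exact permutation test, 2-sided p = 0.000622, adjusted p = 0.0106 over the 17 lists), which is not independent of its 3 called members. The 10 liver genes summed to a median of 14.6 CPM in KO and 8.91 CPM in WT libraries. Their mean log2(CPM + 1) differed by 0.07 (exact permutation test, 2-sided p = 0.158, adjusted p = 0.383 over the 17 lists). Of the 10 genes 4 were tested and 0 called, with 3 positive and 1 negative log2 fold change. Alb, the liver albumin gene, had 9.12 to 15.9 CPM in KO and 4.78 to 8.91 CPM in WT libraries, without overlap, and was not called (0.94 ± 1.22). That SE comes from the joint fit with the HFD libraries, in which WT mice on HFD had 510 ± 1147 CPM (SD). In the chow libraries the SD was 2.65 CPM in KO and 1.45 CPM in WT. The part of these tissues in the results was not tested beyond the fits given here. In the 8 libraries with low Crisp1 level (3 KO, 5 WT) 73 genes were called, of which 45 were among the 99. Low Crisp1 did not mean low epididymis RNA of every kind: of the 3 KO libraries, replicate 5 had the highest sum of the 14 epididymis genes of all 15 libraries (10164 CPM) and replicate 4 had 525 CPM, and Rnase10, Col6a4, Klrb1c and Shc4 were called there (adjusted p of 0.000116 to 0.00464). In that fit Cidea (1.43, adjusted p = 0.105), Nrg4 (-0.75, 0.155), Grb14 (0.76, 0.171), Fabp5 (0.67, 0.208), Cox8b (0.96, 0.409), Hmgcs1 (-0.95, 0.237), Gm7609 (-1.86, 0.405) and Kcne1l (-1.71, 0.0696) kept their direction and lost their call. In the 7 with high Crisp1 level (4 KO, 3 WT) 13 were called, of which 11 were among the 99, and these include Mest, Pmepa1, Lrtm1, Emp1, Slc5a7, Oxtr, Disp2, Slc25a10 and Grb14. A fit that included the epididymis score called 83 genes, 62 of them among the 99.

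**Figure D4:**
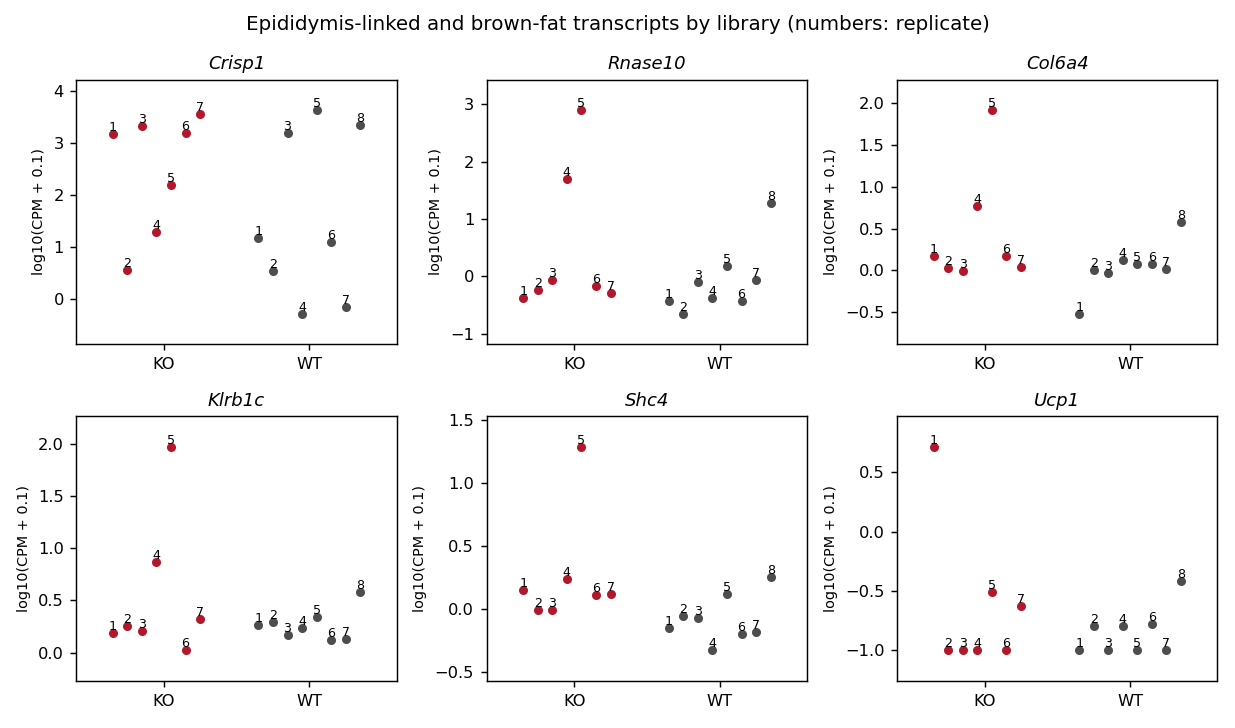
Level of 6 transcripts (log10 of CPM + 0.1) in each chow epididymal library, KO left of WT, with the replicate number above each point. Crisp1 is high in 4 KO and 3 WT libraries, Rnase10, Col6a4, Klrb1c and Shc4 are highest in KO replicate 5, and Ucp1 is highest in KO replicate 1.

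On HFD most of the 99 genes moved the same way in other mice of the same genotypes. There, 5590 of the same 15042 genes were called (37.2%), 17.0% of all genes tested as rises and 20.2% as falls. Of the 26 genes that rose on chow, 20 (76.9%) also rose on HFD. Of the 73 that fell, 47 (64.4%) also fell, so both shares were above those of all genes tested. Both comparisons come from 1 fit with shared estimates of each gene's spread. All genes tested are thus not a like background for genes called on chow. Pmepa1 averaged 40.4 ± 5.61 CPM in KO and 274 ± 37.7 CPM in WT libraries on HFD (SD, -2.59 ± 0.13, adjusted p = 1.78e-14), and Lrtm1 averaged 8.33 ± 0.784 and 2.00 ± 0.311 CPM (2.23 ± 0.14). The KO effect on HFD minus that on chow was -0.51 ± 0.18 for Pmepa1 (adjusted p = 0.053) and 0.05 ± 0.19 for Lrtm1 (adjusted p = 0.905). Mest had 253 ± 83.8 CPM in KO and 810 ± 185 CPM in WT libraries on HFD, and Slc5a7 53.2 ± 17.7 and 176 ± 53.0 CPM. The falls of both were smaller than on chow: the KO effect on HFD minus that on chow was 2.57 ± 0.27 for Mest (adjusted p = 3.06e-07) and 2.92 ± 0.59 for Slc5a7 (adjusted p = 0.00081).

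On HFD 6 of the genes that fell on chow were called as higher in KO, among them Disp2 and Nrg4. Disp2 averaged 4.68 ± 0.918 CPM in KO and 2.57 ± 0.372 CPM in WT libraries on HFD (SD, 1.03 ± 0.17, adjusted p = 1.37e-05). Nrg4 averaged 28.9 ± 3.61 and 15.9 ± 3.64 CPM (1.06 ± 0.15, adjusted p = 9.41e-07). The differences between diets were 2.48 ± 0.24 for Disp2 and 1.93 ± 0.21 for Nrg4 (adjusted p = 2.04e-07 and 4.15e-07). Sox7, called on chow, was at 0.17 ± 0.14 on HFD, a difference of 1.28 ± 0.20 (adjusted p = 3.79e-05). Cidea rose more on HFD, with 13.8 ± 5.20 CPM in KO and 1.81 ± 0.596 CPM in WT libraries (a difference between diets of 1.83 ± 0.36, adjusted p = 0.000682). Of all genes, 2487 (16.5%) differed between diets, 7.83% with a higher and 8.7% with a lower KO effect on HFD, and of the 99, 29 did. That contrast contains the chow comparison by which the 99 were called, so the count of 29 is a description only. On HFD 13 of 14 lipolysis genes, 24 of 24 oxidative phosphorylation genes and 10 of 10 triglyceride synthesis genes rose. On chow 0 in each were called, though the 24 oxidative phosphorylation genes all had a positive log2 fold change there too. Of all genes tested, 17.0% rose on HFD and 0.173% on chow. How many members of these lists passed the test between diets was not counted, so a difference of the lists was not tested.

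In subcutaneous fat of chow-fed mice 36 of 14220 genes were called (0.253%), 0.134% as rises and 0.120% as falls. Of the genes that rose in epididymal fat, 6 of 25 (24.0%) tested there also rose, and of those that fell, 11 of 71 (15.5%) also fell, with 0 called in the opposite direction. Mest averaged 2.79 ± 0.737 CPM in KO and 38.9 ± 15.5 CPM in WT libraries there (SD, -3.75 ± 0.36, adjusted p = 1.69e-07), and Peg3 18.5 ± 4.58 and 96.6 ± 41.1 CPM (-2.37 ± 0.38, adjusted p = 0.00119). Against these, the epididymal effect differed by -0.34 ± 0.39 for Mest and 0.18 ± 0.48 for Peg3 (adjusted p = 1 for both). Oxtr was low there, with 5.19 ± 2.35 and 8.49 ± 4.04 CPM, and was not called. Sez6l, a membrane protein gene known from brain, fell by 3.50 ± 0.56 in subcutaneous fat and by 1.20 ± 0.23 in epididymal fat, and Lrtm1 rose by 1.08 ± 0.21 and 2.18 ± 0.14. The difference between depots was 2.31 ± 0.56 (adjusted p = 0.222) for Sez6l and 1.09 ± 0.25 (adjusted p = 0.191) for Lrtm1. With edgeR 0 of 15480 genes differed between depots in their response on chow, 311 at an unadjusted p under 0.05, and DESeq2 called 19. The labels do not say whether libraries of 1 number in both depots come from 1 mouse. The fit treats them as separate, and with such pairs as a block edgeR also called 0.

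Of the called genes, 95 were tested with the mInhbe vector, and the 30 called there all changed in the other direction than in KO fat. The other 65 were not called with the vector. Counting uncalled genes too, 81 had the opposite sign and 14 the same sign. In epididymal fat 173 of 14850 genes were called between mInhbe and GFP (1.16%), 0.761% as rises and 0.404% as falls. Of the 70 tested genes that fell in KO fat, 26 (37.1%) rose with the vector, and of the 25 that rose in KO fat, 4 (16.0%) fell, with 0 called in the same direction. Mest averaged 1003 ± 170 CPM with mInhbe and 192 ± 89.9 CPM with GFP (SD, 2.38 ± 0.24, adjusted p = 2.25e-06). Slc5a7 averaged 19.8 ± 6.66 and 1.55 ± 0.856 CPM (3.67 ± 0.30), Pmepa1 516 ± 148 and 192 ± 75.2 CPM (1.43 ± 0.22) and Oxtr 167 ± 29.4 and 59.1 ± 24.6 CPM (1.50 ± 0.20). Lrtm1 averaged 0.735 ± 0.333 CPM with mInhbe and 3.06 ± 0.670 CPM with GFP (-2.03 ± 0.23, adjusted p = 2.11e-05). For these 5 genes the vector and the KO had opposite signs. Fasn was not called (1841 ± 996 and 1976 ± 1379 CPM, -0.11 ± 0.35, adjusted p = 0.922), and neither was Peg3 (1.10 ± 0.32, adjusted p = 0.126). The mInhbe and GFP libraries come from another table and experiment, and levels are compared only within it.

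**Figure D5:**
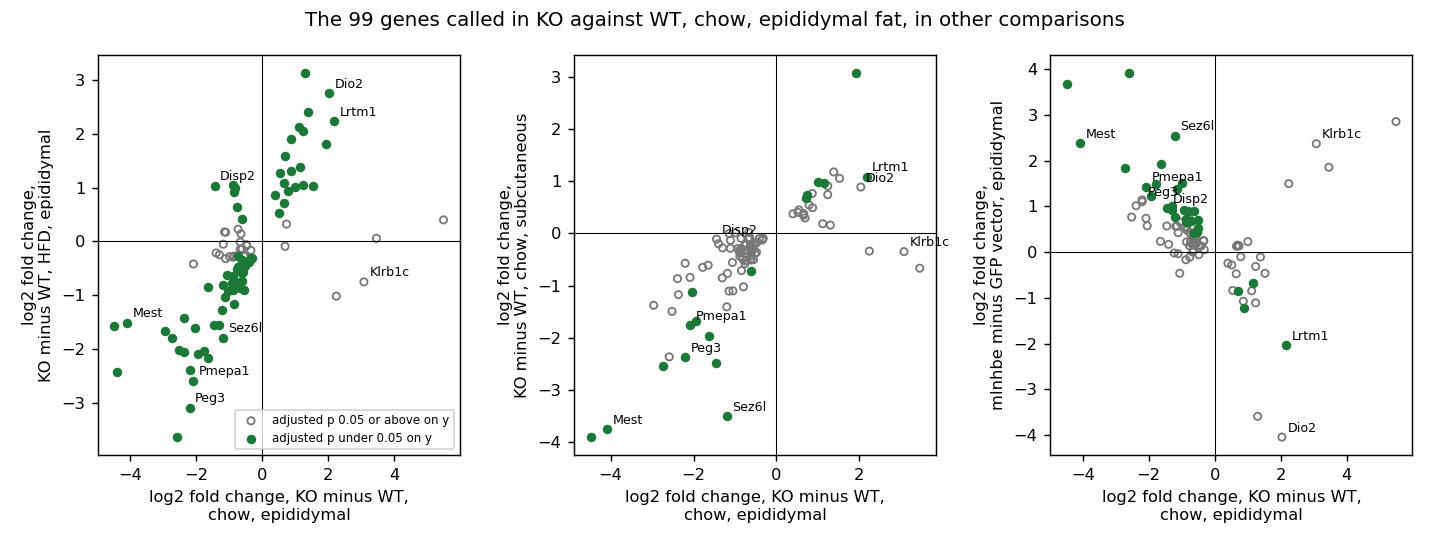
Log2 fold change of the 99 genes called in chow epididymal fat (horizontal axis, KO minus WT) against that in HFD epididymal fat (left, KO minus WT), chow subcutaneous fat (middle, KO minus WT) and epididymal fat with the vectors (right, mInhbe minus GFP), filled where called on the vertical axis. Mest, Pmepa1 and Peg3 are negative in both KO panels, Disp2 is positive on HFD, and Lrtm1 is positive in the KO panels and negative with the vector.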

How the data were processed

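The authors deposited estimated counts for 24475 Entrez gene IDs, unscaled, with a table for each experiment. Of the cells for the KO experiment, 2.93% were not whole within 1e-06. The tests had been planned for raw counts, so these were rounded first. Libraries were KAPA mRNA HyperPrep with molecular identifiers, read as paired ends, per the labels' protocols. The genome was mm10 per the submitters' processing notes, while read alignment, counting, strand and identifier use are not given in the sources used. Symbols, places and promoters come from RefSeq on GRCm38.p6, the assembly that mm10 names, and 24375 IDs had a symbol.

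The 31 epididymal libraries of the KO experiment (KO and WT, HFD and chow) were fitted together. After filterByExpr on the groups (count 10, total 15) and TMM scaling, edgeR 4.0.16 gave robust quasi-likelihood F tests. Calls used Benjamini-Hochberg adjustment over all genes tested and a limit of 0.05. The SE was computed as |log2 fold change| over the root of F. The common biological coefficient of variation was 0.341. Subcutaneous and vector libraries were fitted apart, and depots were compared in a fit of all groups of the KO experiment. CPM is counts per 1e+06 counts of a library, with no further scaling, and TMM factors of the 15 libraries ran from 0.960 to 1.20. The fit was tested on simulated data. Depth was 14.1 to 17.0 in units of 1e+06 counts, floors of 3 counts cover counting error only, and no library was a copy of another (index of spread 12.1 to 97.3 over 49 pairs within groups, 1 for counting noise).

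The comparison, the 38 gene lists and the named genes were chosen with earlier results of these data known. Named genes were Inhbe and Acvr1c, the 12 largest rises and 12 largest falls called whose level averaged 1 CPM or more, per list the 4 called members of smallest p (2 where none was called), and up to 5 genes of each sign by adjusted p for each interaction. A few genes under it are not reported here. Genes named beyond this rule were chosen after their values were seen, as were the fits by Crisp1 level (limit 1000 CPM). Alternatives were RLE factors, DESeq2 1.42.0, limma-voom with sample quality weights (limma 3.58.1), no low-count filter, the 2 groups alone, the replicate number as a block, an epididymis score as a covariate and each library left out. R 4.3.3 and Python 3.11.15 were used.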

Additional observations from a re-analysis of the deposited data

Results flagged for a closer look

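A library stood far from the rest of its group in 18 of 192 checks over 97 named genes. Chance would give about 1 in 20 for separate checks of genes not picked by their values. Some of these genes were named for rises that follow 1 library, and the same libraries recur. The count of 18 is therefore a description only. KO replicate 5 was highest for Col6a4 (82.7 CPM), Klrb1c (93.9 CPM), Shc4 (19.4 CPM) and Pmepa1 (60.0 CPM), the last still below every WT library. WT replicate 8 was highest for Rnase10 (19.2 CPM), Col6a4 and Klrb1c (3.75 CPM each), Ly6g5b (4.52 CPM) and Ucp1 (0.283 CPM). KO replicate 1 was highest for Ucp1 (5.06 CPM). KO replicate 3 was lowest for Clstn3 (10.9 CPM), Cycs (195 CPM), Hmgcs1 (105 CPM) and Cd28 (0.341 CPM) and highest for the mast cell gene Fcer1a (1.77 CPM), and KO replicate 2 was lowest for Cpt1b (1.64 CPM). Among WT libraries, replicate 6 was highest for S100a9 (2.22 CPM) and replicate 4 for Emcn (38.9 CPM).

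For 39 named genes the KO effect on HFD differed from that on chow (edgeR interaction, adjusted p under 0.05), against 16.5% of all genes tested. Some were named for their small adjusted p in this same contrast, and others by the chow call that it contains. The count of 39 is therefore a description only. Values are the effect on HFD minus that on chow, on the log2 scale. Of genes called on chow, the falls of Disp2 (2.48), Nrg4 (1.93), Sox7 (1.28), Mest (2.57) and Slc5a7 (2.92) and the rises of Cidea (1.83), Cox8b (1.02) and Clstn3 (0.81) had positive differences, and the rises of Col6a4 (-3.40), Klrb1c (-3.84) and Shc4 (-3.26), which follow KO replicate 5, had negative ones. Of the other named genes, positive differences were seen in Acvr1c (1.46), G0s2 (0.98), Prkaca (0.57), Hcar1 (1.10), Ffar4 (1.47), Agpat2 (0.75), Hadha (0.38), Cycs (0.51), Klf15 (1.18), Ces1d (2.16), Aldh5a1 (1.24), Car1 (2.55), Cdr2 (0.51) and Gsdme (0.71), and negative ones in Cd14 (-0.81), Mmp12 (-1.96), Ctsk (-1.81), Il7r (-1.70), Fcer1a (-1.52), S100a8 (-1.59), Cd9 (-1.49), Gla (-1.40), Mki67 (-1.12) and Stxbp2 (-1.06). The same sign was seen in C2cd2 (-1.05), Fstl1 (-0.65) and the liver genes Alb (-5.51) and Ahsg (-4.34), whose levels in WT HFD libraries spread widely (Alb 510 ± 1147 CPM, SD). Apart from those called on chow, these genes were not called there.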

How the results depend on the processing

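The main count of 99 genes was 182 with DESeq2, 256 with limma-voom and sample quality weights, which changes test and weights together, 162 in a fit of the 2 groups alone (4 of the 99 not tested there) and 13 in the libraries of high Crisp1 level. It was 130 with RLE factors (46 rises, 84 falls) and 70 to 129 with a library left out. DESeq2 called 98 of the 99 and limma-voom 89, whereas the fit of the 2 groups alone kept 73 and lost 26. Elsewhere DESeq2 called 119 genes in subcutaneous fat, 19 between depots and 314 with the vectors, and of its 182 chow calls 118 were shared on HFD, 36 in subcutaneous fat and 60 in the opposite direction with the vector. With the replicate block 97 genes were called on chow (82 of the 99), 23 in subcutaneous fat and 76 with the vectors, and the block ended the named calls of Rnase10, Col6a4, Klrb1c and Shc4. Same-numbered KO and WT epididymal libraries correlated at -0.36 to 0.67 in their deviations (4 of 7 pairs above 0.1). Same-numbered epididymal and subcutaneous libraries correlated at -0.04 to 0.16 in WT (4 of 8 pairs above 0.1). In KO they correlated at -0.10 to 0.09 (0 of 7). The main fits did not use the numbers, and what they stand for was not tested. With RLE factors 2 lipogenesis and 2 epididymis genes were called. The macrophage difference was -0.31 (adjusted p = 0.0476) with 0.1 added to CPM. In the libraries of high Crisp1 level Rnase10 (-3.65), Col6a4 (-0.56) and Klrb1c (-0.60) reversed, and the cause was not tested. Over all alternatives the other named genes that were called on chow kept their direction. A change of sign was not counted for named genes that were not called. Over all named genes 2153 fits were counted as unchanged, with 112 losses of a call and 9 gains. Genes near 0.2 CPM rest on a few counts per library, which limits their folds.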

Other observations

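Among the called genes of other functions, the terminal complement gene C6 had 29.2, 48.3 and 75.7 CPM (lowest, median, highest) in KO and 61.3, 108 and 184 CPM in WT libraries (-1.18 ± 0.21, adjusted p = 0.00173). Trp53inp2, an autophagy regulator gene, had 196, 291 and 406 CPM in KO and 392, 538 and 764 CPM in WT libraries (-0.88 ± 0.17). Slc22a3, an organic cation transporter gene, had 63.4 to 78.3 CPM in KO and 93.5 to 132 CPM in WT libraries (-0.74 ± 0.10), without overlap of the groups. Unc79, whose product belongs to a sodium leak channel complex, fell by 1.30 ± 0.17, and Ctcfl, a CTCF paralog known from testis, by 1.14 ± 0.22. Vhl, the von Hippel-Lindau ubiquitin ligase gene, fell by 0.62 ± 0.12. Adam12, a metalloprotease gene of the stroma, rose by 0.66 ± 0.13, and Zfp703, a zinc finger gene, by 0.65 ± 0.14.

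Lists of other cell types held 0 called genes among 11 T cell, 12 B cell, 6 mast cell, 3 neutrophil, 10 mesothelial, 9 Schwann cell and 11 progenitor genes tested. The share called over all genes tested was 0.658%. All 12 B cell genes had a negative log2 fold change (median -0.54), as did all 6 mast cell genes (median -0.17). Of the 9 Schwann cell and nerve genes 8 had a positive one (median 0.27). Members of a list can move together, so signs are not separate observations. Compared over libraries, the mean log2(CPM + 1) of the B cell, mast cell and Schwann cell lists differed by -0.28, -0.18 and 0.14. The exact permutation test gave 2-sided p = 0.265, 0.246 and 0.282 (adjusted p = 0.436 for each).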
